A study of Mus musculus with 22 samples.

Results

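The homeobox families that pattern the embryo outside the Hox clusters were followed through 10 epigenetic compounds in mouse embryonic stem cells. The members were taken by symbol, as every gene row named Pax, Lhx, Irx, Dlx, Msx or sine oculis (Six2, Six4 and so on) with a number after the family name, or Nkx with 2 numbers joined by a hyphen. This gave 28 of the 18487 genes in the expression table, and 24 of these 28 were abundant enough to test. RNA sequencing was done on E14 cells, a mouse embryonic stem cell line, with 2 libraries for each compound and 2 for the group labelled NC, which served as the reference. All 11 groups were of this line, with no genetic change in the labels, and the labels set them apart by the compound alone. The labels give neither doses nor treatment times, and do not say what vehicle, if any, the NC cells received.

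The compounds are known for the following targets. DZNep blocks the hydrolase that clears S-adenosylhomocysteine, which lowers methylation by many methyltransferases including that of Polycomb repressive complex PRC2, and valproate inhibits histone deacetylases. Bromosporine binds many bromodomains, the readers of acetylated histones. MS023 inhibits type I protein arginine methyltransferases, IOX1 inhibits many oxygenases including histone demethylases, Chaetocin is used against the H3K9 methyltransferases of the SUV39 family, and UNC0379 was made against the H4K20 methyltransferase SETD8. CPTH2 and Garcinol inhibit histone acetyltransferases. The group labelled OICR is given by that name alone, since the labels do not name the compound further.

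Homeobox genes encode transcription factors that bind DNA through a homeodomain, and the families examined here act as selectors of cell identity. The Pax proteins are defined by a paired domain, and Pax1 lacks a homeodomain. The sine oculis proteins (Six2, Six4 and their relatives) carry a conserved protein-binding domain beside the homeodomain, the Lhx proteins carry LIM domains that bind partner proteins, and the Irx proteins belong to the TALE class. In embryonic stem cells many of these genes lie in CpG-rich chromatin occupied by Polycomb complexes, and are held at low levels until lineages form.

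Of 52 mouse genes with such names in the GENCODE M21 annotation (mm10), the 28 in the table comprised 7 Nkx, 5 sine oculis, 4 Pax, 4 Lhx, 4 Irx, 2 Dlx and 2 Msx genes. The other annotated members were not analysed here.

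Promoters are shown for genes that were called in opposite directions with DZNep and for Pax8, called with valproate, so that their base composition can be read beside the values below. Each run is the 250 bases upstream of the RefSeq start (GRCm38.p6, minus strand in every case), and every CG dinucleotide is in capitals. Nkx2-9 lies at chr12:56613285-56613534, Nkx6-2 at chr7:139582798-139583047, Msx1 at chr5:37824586-37824835 and Pax8 at chr2:24475600-24475849.
Nkx2-9: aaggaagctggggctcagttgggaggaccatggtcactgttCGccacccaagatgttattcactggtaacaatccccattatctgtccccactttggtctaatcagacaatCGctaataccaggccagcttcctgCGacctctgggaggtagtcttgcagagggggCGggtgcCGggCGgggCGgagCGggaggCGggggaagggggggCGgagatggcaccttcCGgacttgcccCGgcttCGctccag
Nkx6-2: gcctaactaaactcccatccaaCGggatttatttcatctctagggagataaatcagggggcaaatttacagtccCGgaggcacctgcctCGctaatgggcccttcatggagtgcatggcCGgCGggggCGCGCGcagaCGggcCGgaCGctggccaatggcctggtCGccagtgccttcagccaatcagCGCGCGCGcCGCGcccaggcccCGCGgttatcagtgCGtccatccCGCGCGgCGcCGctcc
Msx1: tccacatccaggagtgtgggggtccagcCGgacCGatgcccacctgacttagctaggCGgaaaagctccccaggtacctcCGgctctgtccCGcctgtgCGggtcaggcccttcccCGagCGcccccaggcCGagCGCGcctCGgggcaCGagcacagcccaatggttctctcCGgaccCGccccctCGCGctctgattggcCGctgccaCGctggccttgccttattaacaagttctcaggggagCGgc
Pax8: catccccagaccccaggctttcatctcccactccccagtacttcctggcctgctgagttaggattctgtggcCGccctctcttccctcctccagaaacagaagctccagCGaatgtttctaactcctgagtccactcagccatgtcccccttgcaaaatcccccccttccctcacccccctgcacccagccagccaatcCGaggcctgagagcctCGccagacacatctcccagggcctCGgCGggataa

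These windows hold 13 CG dinucleotides in Nkx2-9, 26 in Nkx6-2, 20 in Msx1 and 6 in Pax8. The window of Nkx2-5, which was called lower with DZNep, holds 8 (percentile 57.0 of the table) and is not printed, since 43 of its bases lie in an exon of the gene itself. Over all members, 28 promoters of 23 genes were found in the RefSeq table of 32851 promoters, and Nkx6-3 was not among them. The member windows held a median of 16.5 CG dinucleotides (4 to 33) and the whole table a median of 6 (0 to 56). Short motifs were counted on both strands, and none contains another. CCAAT was present in 57.1% of member windows and 33.8% of all windows, and GGGCGG, the GC box, in 67.9% and 32.7%. CACGTG was present in 7.14% and 6.02%. TATAAA was found in 0 of the 28 member windows and in 12.4% of all windows. Genes with several starts count more than once here, so the windows are not independent.

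Most members were measured at low levels. The values are normalized read counts, rounded to whole numbers by the authors, and 23 of the 28 genes were above 0 in all 22 libraries. Only 9 had an NC mean above 100. Irx1 and Irx4 never exceeded 6, Lhx1 was above 0 only with DZNep (3 and 1), and Six6 reached 4 at most; these 4 genes were not tested.

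Per kilobase of exon, the highest NC level was that of Nkx6-3 (143), a gene of the stomach and hindbrain. Nkx6-2 and Irx2 had the same level per kilobase (135), followed by Six5 (117), Six4 (93.7) and Irx3 (86.5). Msx1 was at 31.8 and Nkx2-5 at 29.4. The members with the highest mean count in their family over the 22 libraries were Six4 (747 to 1465), Nkx6-2 (169 to 1578), Irx2 (331 to 725), Lhx2 (42 to 167), Msx1 (11 to 223), Pax6 (15 to 173) and, in the Dlx family, Dlx2 among those never at 0 (1 to 23). Over all groups Six4 and Irx2 stayed within about 2-fold and Nkx6-2 did not.

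**Figure D1:**
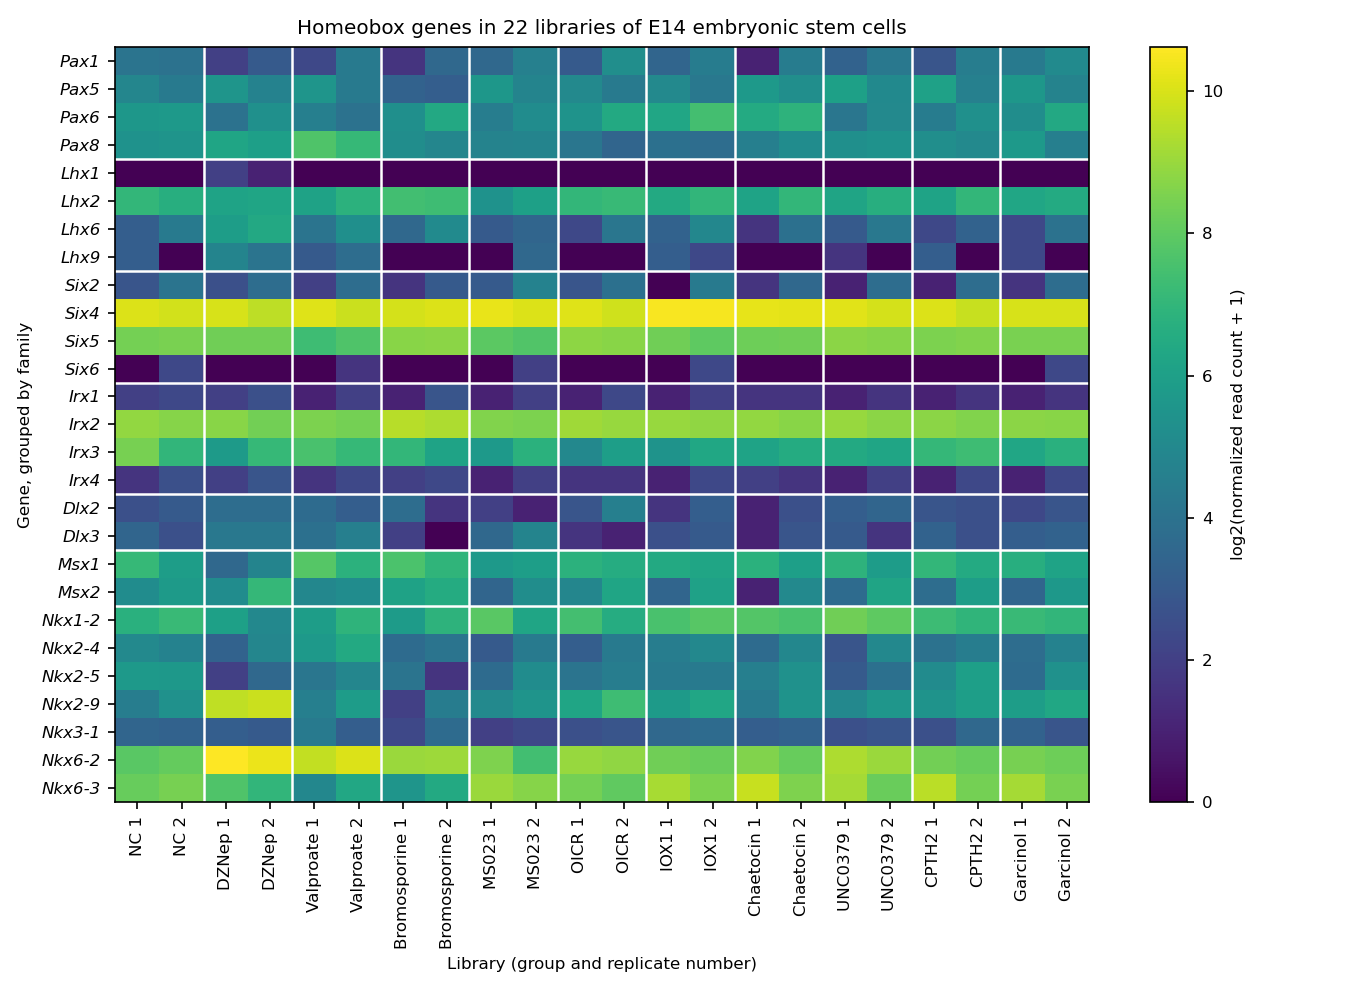
Heat map of log2(normalized read count + 1) for 27 homeobox genes (rows, by family) in the 22 libraries (columns, 2 for each group). Six4, Irx2, Six5 and Nkx6-3 are bright in NC, most Lhx and Dlx genes are dark, and Nkx2-9 is bright only in the DZNep libraries (777 and 871).

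The sequenced cells carried the markers of their label. All 12 pluripotency markers of the list used were in the table, with a summed level of 193347 to 319932 in each library. Fibroblast markers summed to 120 to 2023, with Dcn at 0 in every library. Within the NC sums, Postn had 474 and 559 counts and Col3a1 had 4 and 743. Both genes varied widely between libraries (Postn 0 to 819, Col3a1 2 to 851), and the fibroblast sums follow them. Mesoderm markers (5 of 10 in the table) summed to 150 to 377 and endoderm markers (6 of 10) to 251 to 785. Neural markers (5 of 10) summed to 2496 to 6495, and trophoblast markers (8 of 10) to 3370 to 6147. Tfap2c alone had 3379 and 2712 counts in NC and 2576 to 5480 over the series, so the trophoblast sums were mostly made up of this gene. In bulk RNA, fewer cells of a type and less RNA per cell cannot be told apart. The library totals were equalized by the normalization (38403767 to 38419709), so the depth of each library is unknown.

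Changes were estimated on the log2(value + 1) scale with limma over all 11 groups, which understates the change of low genes. A gene was called where its Benjamini-Hochberg adjusted p was under 0.05 and its change exceeded 2-fold. Called genes are described as higher or lower, and every p below is such an adjusted p over the 17275 tested genes. The labels do not say whether the 2 libraries of a group came from separate cultures, so the p-values measure the spread between these libraries, which may be technical. The comparisons with the separate compounds share the NC libraries.

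With DZNep members were called in both directions. Nkx2-9 and Nkx6-2, both genes of the ventral neural tube, were higher, and Nkx2-5 and Msx1 were among those that were lower. In all, 5 members were called, 20.8% of the 24 tested members, where 11.4% of all tested genes were called. By direction, 2 members were higher (8.33%, against 5.27% of all genes) and 3 lower (12.5%, against 6.14%). Without NC replicate 1 fewer genes were called with DZNep and with valproate, both among the members and over all tested genes. The median change of the members was -0.25, and that of all genes -0.04.

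Nkx2-9 (ENSMUSG00000058669, chr12:56611389-56613284, minus strand) is a homeobox gene of the cells next to the floor plate. It had 22 and 40 normalized counts in the NC libraries and 777 and 871 with DZNep. Both DZNep libraries stood above every other library of the series, of which the next highest was an OICR library at 161. The log2 change was 4.75 (SE 0.70, adjusted p = 0.000361), with 5.08 between the libraries numbered 1 and 4.41 between those numbered 2. It was also higher with DZNep than with valproate (4.45, adjusted p = 0.000625) and than with Bromosporine (6.46, adjusted p = 2.72e-05).

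Nkx6-2 (ENSMUSG00000041309, chr7:139579376-139582797, minus strand) acts in ventral neural progenitors and oligodendrocytes. It had 240 and 276 counts in NC, 1578 and 1267 with DZNep, and 804 and 1082 with valproate. All 4 treated libraries lay above the other libraries of the series, which reached 646. The log2 change was 2.45 with DZNep (SE 0.29, adjusted p = 7.54e-05) and 1.85 with valproate (SE 0.29, adjusted p = 0.00151). The difference between both compounds, 0.60, was not called (95% confidence interval -0.02 to 1.22, adjusted p = 0.161). The promoter above, with its 26 CG dinucleotides, stands at percentile 90.4 of the table for CG number.

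Exons of Nkx6-2 overlap exons of Inpp5a, a phosphatase gene on the opposite strand, and 11.6% of the 31-base stretches of its longest transcript occur in transcripts of other genes. Whether strand was used in counting is not given in the sources used here, so reads from the shared stretch cannot be assigned with certainty. Inpp5a had 768 and 843 counts in NC and 358 and 402 with DZNep, a log2 change of -1.08 (adjusted p = 0.0165), which is opposite in sign to that of Nkx6-2. With valproate it had 881 and 921 counts (0.16, adjusted p = 0.799).

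Nkx2-5 (ENSMUSG00000015579, chr17:26838664-26845009, minus strand), a cardiac regulator, fell from 51 and 50 counts to 3 and 11. The groups did not overlap, and the log2 change was -2.89 (SE 0.83, adjusted p = 0.022). Msx1 (ENSMUSG00000048450, chr5:37820485-37824583, minus strand), a target of BMP signalling in limb and face, fell from 137 and 60 counts to 11 and 27. These 2 were the lowest of the 22 libraries, and the log2 change was -2.32 (SE 0.52, adjusted p = 0.00573). Within library number 1 it was -3.52 and within number 2 it was -1.12.

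The calls for Nkx2-5 and Msx1 did not hold in every fit that left out 1 library. Nkx2-5 was no longer called without DZNep replicate 1 (log2 change -2.10), NC replicate 1 (-2.88) or NC replicate 2 (-2.91). Msx1 was no longer called without DZNep replicate 1 (-1.71) or NC replicate 1 (-1.73). With all libraries kept, limma also lost the Nkx2-5 call after adjustment over all 10 contrasts (adjusted p = 0.0906). The same held with all other groups averaged in place of NC (-1.67, adjusted p = 0.0508).

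The other 19 tested members were not called with DZNep. Lhx6, a gene of cortical interneurons, had 8 and 19 counts in NC and 59 and 84 with DZNep (2.41, SE 0.96, adjusted p = 0.0875). Nkx1-2, expressed in the caudal neural plate, had 106 and 145 in NC and 65 and 30 with DZNep (-1.47, SE 0.54, adjusted p = 0.0665). In neither gene did the groups overlap, which was so for 17 of the 24 members (70.8%) and for 58.9% of all genes.

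Markers of other cell types moved with DZNep as well. Of 8 tested fibroblast markers 3 were higher (Col1a1, Thy1 and Pdgfra), of 8 trophoblast markers 4 (Gata3, Ascl2, Krt8 and Eomes), of 5 neural markers 1 was higher (Neurod1) and 2 lower (Sox1 and Nes), of 6 endoderm markers 1 was higher (Dab2) and 1 lower (Gata4), and of 4 mesoderm markers 1 was higher (Mesp2). The summed fibroblast level was 767 and 1495 in NC and 1789 and 2023 with DZNep, with Lum and Dcn at 0 in all 4 libraries. Summed trophoblast levels were 3846 and 3373 in NC and 4599 and 3833 with DZNep, neural levels 3396 and 5062 against 4806 and 5379, endoderm levels 529 and 398 against 451 and 785, and mesoderm levels 201 and 219 against 377 and 356. The pluripotency list summed to 233000 and 229067 in NC and 291724 and 319932 with DZNep. The part of these shifts in the homeobox changes was not tested.

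**Figure D2:**
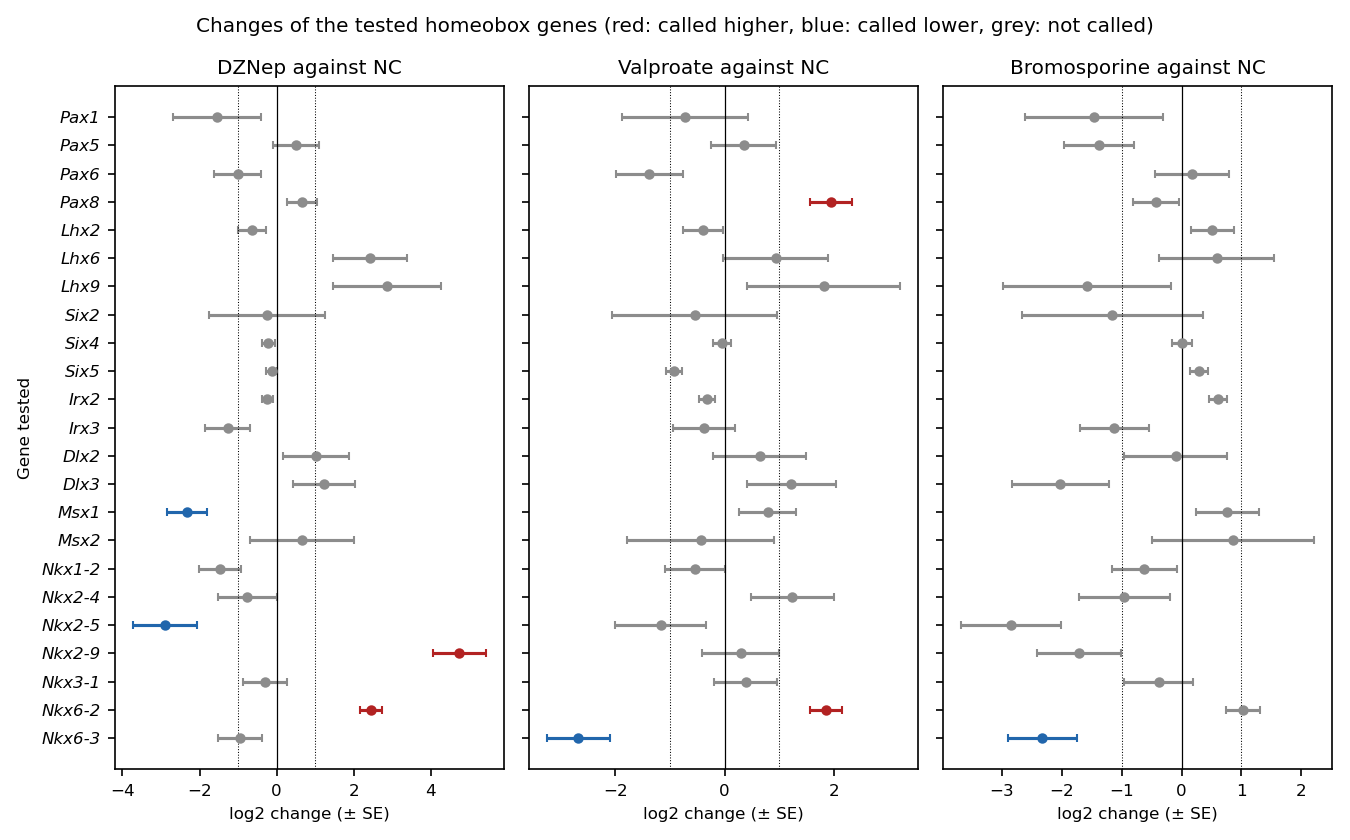
The log2 change against NC (x axis, with its SE) of 23 tested homeobox genes (y axis) with DZNep, valproate and Bromosporine; red marks genes called higher, blue genes called lower, grey genes not called, and dotted lines a 2-fold change. Nkx2-9 stands farthest right with DZNep (4.75), Nkx6-2 is right of the dotted line in all 3 panels, and Nkx6-3 is the blue point of the valproate and Bromosporine panels.

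With valproate, Nkx6-2 and Pax8 were higher and Nkx6-3 was lower. These 3 calls are 12.5% of the members, and 5.28% of all tested genes were called. Higher calls made up 8.33% of members against 2.73% of all genes, and lower calls 4.17% against 2.55%. The median change of the members was -0.13, beside -0.02 for all genes, and its sign did not hold, at 0.07 without valproate replicate 1 and 0.06 with all other groups averaged in place of NC.

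Pax8 (ENSMUSG00000026976, chr2:24420560-24475599, minus strand) directs thyroid and kidney development. It had 42 and 44 counts in NC and 205 and 138 with valproate, the 2 highest of all libraries. The log2 change was 1.94 (SE 0.38, adjusted p = 0.0061), and without valproate replicate 1 the call was lost (1.66, adjusted p = 0.0653). With DZNep Pax8 had 76 and 62 counts, and the direct comparison placed DZNep below valproate (-1.28, adjusted p = 0.0285). With OICR it had 17 and 10 counts and with IOX1 14 and 13, the lowest of the series, with changes of -1.64 (adjusted p = 0.0821) and -1.60 (adjusted p = 0.125) that were not called. Exons of Pax8 overlap the opposite-strand gene Gm13415, which was not analysed here.

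Nkx6-3 (ENSMUSG00000063672, chr8:23153269-23158948, plus strand) had 287 and 352 counts in NC, 29 and 82 with valproate, and 45 and 87 with Bromosporine. These 4 libraries were the lowest for this gene, followed by DZNep at 209 and 128. The log2 change was -2.68 with valproate (SE 0.58, adjusted p = 0.00982) and -2.33 with Bromosporine (SE 0.58, adjusted p = 0.0336). Between both compounds the difference was -0.35 and not called (95% confidence interval -1.59 to 0.89, adjusted p = 0.741). It was higher with DZNep than with valproate (1.72, adjusted p = 0.046). The valproate call was lost without valproate replicate 1 (adjusted p = 0.11), NC replicate 1 (0.0501) or NC replicate 2 (0.0674), and the Bromosporine call without Bromosporine replicate 1 (0.235), NC replicate 1 (0.138) or NC replicate 2 (0.143).

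Nkx6-2 and Nkx6-3 are of the same Nkx subfamily, and with valproate they were called in opposite directions. Among the members, Six5 had the lowest adjusted p with valproate after Nkx6-2, below those of the called Pax8 and Nkx6-3. It had 342 and 360 counts in NC and 161 and 209 with valproate (-0.93, SE 0.15, adjusted p = 0.00161). Six5 was not called because its change was under 2-fold. Msx1, lower with DZNep, had 223 and 111 counts with valproate and was not called against NC. Its direct difference between DZNep and valproate was -3.11 (adjusted p = 0.000966).

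Fibroblast markers also moved with valproate, as 3 of 8 were higher (Lum, Thy1 and Pdgfra). For Lum the NC libraries were at 0 and the valproate libraries at 197 and 331, Dcn stayed at 0, and the summed fibroblast level was 767 and 1495 in NC and 1701 and 1554 with valproate. Of 5 neural markers, Map2 was higher and Sox1 lower, with summed levels of 3396 and 5062 in NC and 3749 and 4847 with valproate. Summed trophoblast levels were 5820 and 6147 with valproate, with limma calling 0 of 8 markers (2 at an unadjusted p under 0.05). Their part in the homeobox changes was not tested.

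With Bromosporine, Nkx6-3 was the 1 member called. This is 4.17% of the members, beside 3.34% of all tested genes, and as a lower call it stands beside 2.77% of all genes. The median change of the members was -0.40 and that of all genes 0.01. Irx2, of the Iroquois family, had the lowest adjusted p, with 474 and 414 counts in NC and 725 and 632 with Bromosporine, but its change of 0.61 (SE 0.14, adjusted p = 0.0274) was under 2-fold. These were the 2 highest values of Irx2 in the series. Nkx2-5 had 16 and 2 counts (-2.85, SE 0.83, adjusted p = 0.0663) and Nkx6-2 had 514 and 538 (1.03, SE 0.29, adjusted p = 0.0573), and neither was called. Unadjusted p-values under 0.05 were found for 7 of the 24 members (29.2%) and 19% of all genes. Of 8 fibroblast markers 1 was lower (Col1a1), and the summed level was 767 and 1495 in NC and 787 and 697 with Bromosporine. Of 8 trophoblast markers Eomes was higher and Hand1, also 1 of the 4 tested mesoderm markers, lower, with summed trophoblast levels of 5729 and 4423. Their part in the change of Nkx6-3 was not tested.

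**Figure D3:**
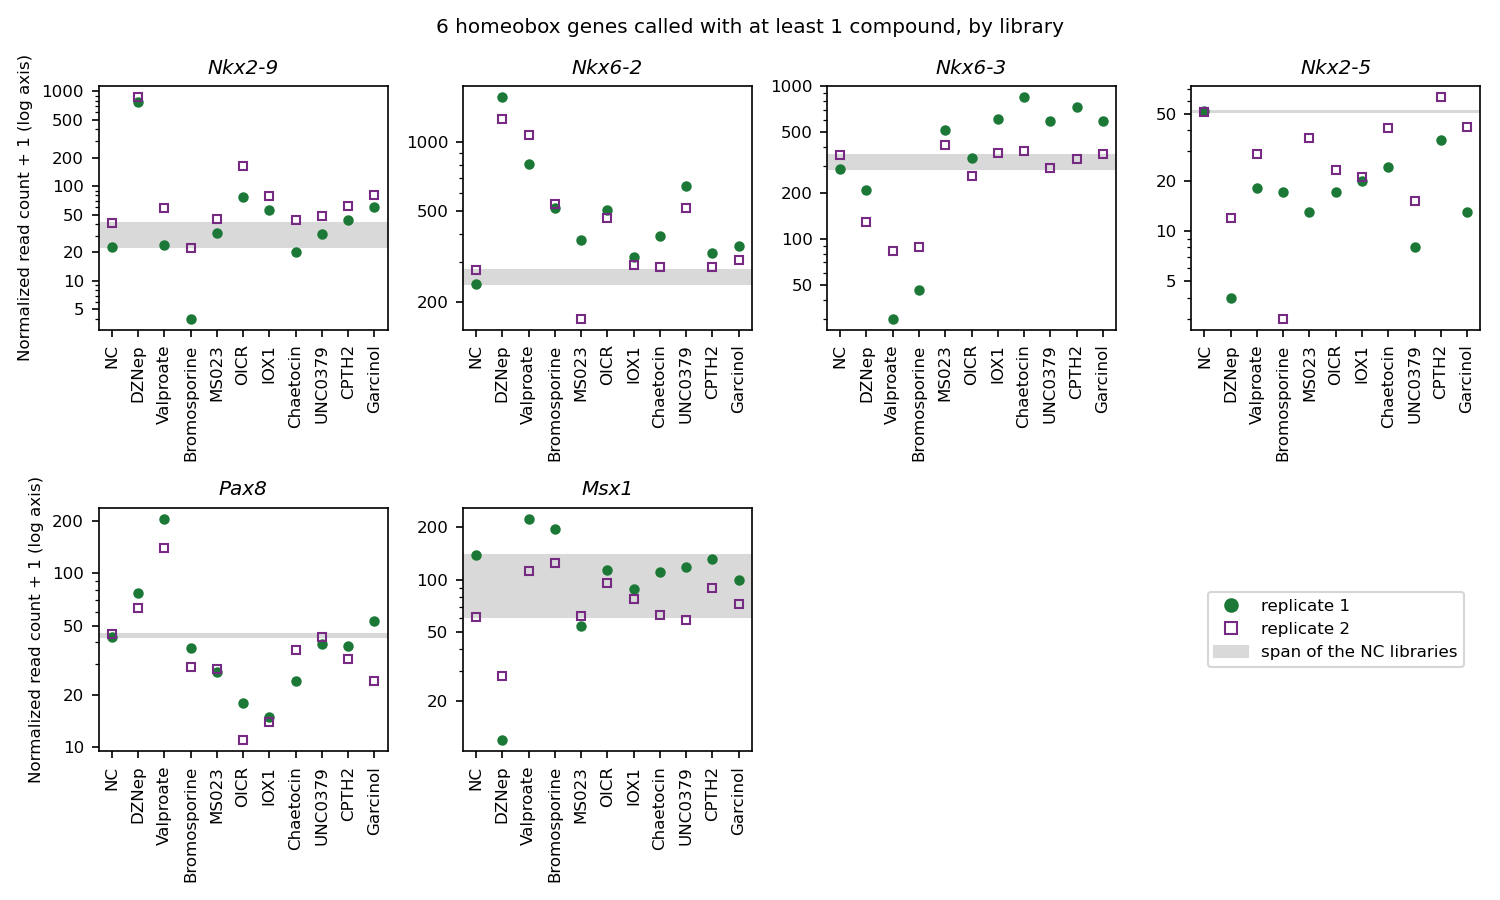
Normalized read count + 1 (log axis) of 6 homeobox genes called with at least 1 compound, in each library by group (x axis); filled circles are replicate 1, open squares replicate 2, and the grey band spans the NC libraries. Nkx2-9 reaches 777 and 871 with DZNep, Nkx6-2 is highest with DZNep and valproate, and both libraries of valproate, Bromosporine and DZNep lie below the band for Nkx6-3.

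The direct comparisons added members that were not called against NC. Between DZNep and Bromosporine 8 members were called (33.3%, against 14.8% of all genes). Besides Nkx2-9, these were Nkx6-2 (1.43, adjusted p = 0.00257) and Pax8 (1.09, adjusted p = 0.0495), both higher with DZNep, and Msx1 (-3.09, adjusted p = 0.000733), lower with DZNep. Pax5, a B cell regulator, had 46 and 25 counts with DZNep and 9 and 8 with Bromosporine (1.88, adjusted p = 0.0293). Lhx2, a forebrain and eye gene, had 71 and 75 against 167 and 160 (-1.15, adjusted p = 0.031). Dlx3, of skin and placenta, had 18 and 18 against 3 and 0 (3.25, adjusted p = 0.00915), and Lhx9, of the gonad and brain, had 27 and 16 against 0 and 0, for which no fold is given. The last 2 rest on values near 0. Without 1 library at a time the count fell to 5 (without either DZNep library), 4 (without Bromosporine replicate 1) or 3 (without Bromosporine replicate 2). Nkx2-9, Nkx6-2 and Msx1 were called in all 4 of these fits, Dlx3 in 3 (adjusted p = 0.096 without Bromosporine replicate 2), Pax5 in 1 (0.156, 0.098 and 0.108 in the others), and Lhx2 (0.0841 to 0.128) and Lhx9 (0.0719 to 0.114) in none.

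Between DZNep and valproate 4 members were called (16.7%, against 10.8%), namely Nkx2-9, Nkx6-3, Pax8 and Msx1. Between valproate and Bromosporine 3 were called (12.5%, against 8.64%). Pax8 was higher with valproate (2.37, adjusted p = 0.00135), as was Dlx3 with 14 and 23 counts (3.25, adjusted p = 0.0168). Six5 was lower with valproate than with Bromosporine, with 161 and 209 counts against 422 and 436 (-1.22, adjusted p = 0.000192). The Dlx3 call was lost without valproate replicate 2 (adjusted p = 0.0949) or Bromosporine replicate 2 (0.16). In the DZNep and valproate comparison, Nkx6-3 and Pax8 were lost without DZNep replicate 1 (adjusted p = 0.204 and 0.0559), DZNep replicate 2 (0.067 and 0.13) or valproate replicate 1 (0.373 and 0.206). The Pax8 call between DZNep and Bromosporine was lost without any 1 of the 4 libraries (0.0846 to 0.205).

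For the other 7 compounds, limma called 0 of the 24 members. The share of all genes called was also low, at 0.973% for MS023, 0.388% for OICR, 0.116% for IOX1, 0.0174% for Chaetocin, 0.00579% each for CPTH2 and Garcinol, and 0% for UNC0379. At an unadjusted p under 0.05, there were 5 members with OICR, 4 with UNC0379, 3 each with MS023 and IOX1, 1 with Chaetocin and 0 with CPTH2 and Garcinol. Over all genes this share was 10.7% for OICR, 6.08% for UNC0379, 15% for MS023, 12.4% for IOX1, 4.72% for Chaetocin, 0.944% for CPTH2 and 3.62% for Garcinol, and among the members it was 20.8%, 16.7%, 12.5%, 12.5%, 4.17%, 0% and 0% in the same order.

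None of the following members was called with these compounds. Nkx2-9 had 76 and 161 counts with OICR (1.86, SE 0.70, adjusted p = 0.32). Nkx6-2 had 646 and 518 with UNC0379 (1.17, SE 0.29, adjusted p = 0.446) and 506 and 465 with OICR (0.91, SE 0.29, adjusted p = 0.222). Six5 had 249 and 215 with MS023 (-0.60, SE 0.15, adjusted p = 0.0543). Irx3 had 352 and 126 counts in NC, and 30 and 61 with OICR (-2.27, SE 0.57, adjusted p = 0.107). Nkx1-2 had 319 and 250 counts with UNC0379, the 2 highest of the series (1.18, SE 0.54, adjusted p = 0.815).

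In all, 7 of the 24 tested members were called with at least 1 compound (29.2%, beside 16.3% of all tested genes) and 17 with none. Of the 7, 5 genes were called with 1 compound and 2 genes with 2 compounds, namely Nkx6-2 with DZNep and valproate, and Nkx6-3 with valproate and Bromosporine. Nkx genes made up 4 of the 7, and 7 of the 24 tested, and no Lhx, Irx or Dlx gene was called against NC. All calls against NC borrow the spread of the other groups: when each comparison was fitted on its own 4 libraries, none of them held (adjusted p from 0.0584 to 0.196). Over all tested genes, calls also fell in those fits, from 1970 to 97 with DZNep and from 912 to 75 with valproate. The members had a median SD between replicates of 0.619 (log2), against 0.275 for all tested genes. Levels were not matched in this comparison or in the shares over 2-fold that follow, and most members had low counts. With DZNep the fitted change of 13 members (54.2%), called or not, was over 2-fold, beside 21.1% of all genes, and with MS023 that of 8 members (33.3%), none of them called, beside 9.16%.

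Some members differed between the replicate numbers in the same direction in every group, as many other genes did. Replicate 2 was higher than replicate 1 in all 11 groups for Lhx6, Msx2, Nkx2-9 and Six2, and lower in all 11 for Irx2 and Pax5. It was higher in all 11 for 5 members (20.8%) and for 12.3% of all genes. Msx2, a gene of skull and limb, had a median difference of 1.91 on the log2 scale, with 1 and 31 counts with Chaetocin and 35 and 134 with DZNep. Six2, of kidney progenitors, had 0 and 20 counts with IOX1. In at least 9 of the 11 groups replicate 2 was higher for 10 members (41.7%), beside 31.6% of all genes. It was higher in at most 2 groups for 5 members (20.8%), beside 27% of all genes. The labels do not say what the replicate numbers stand for.

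**Figure D4:**
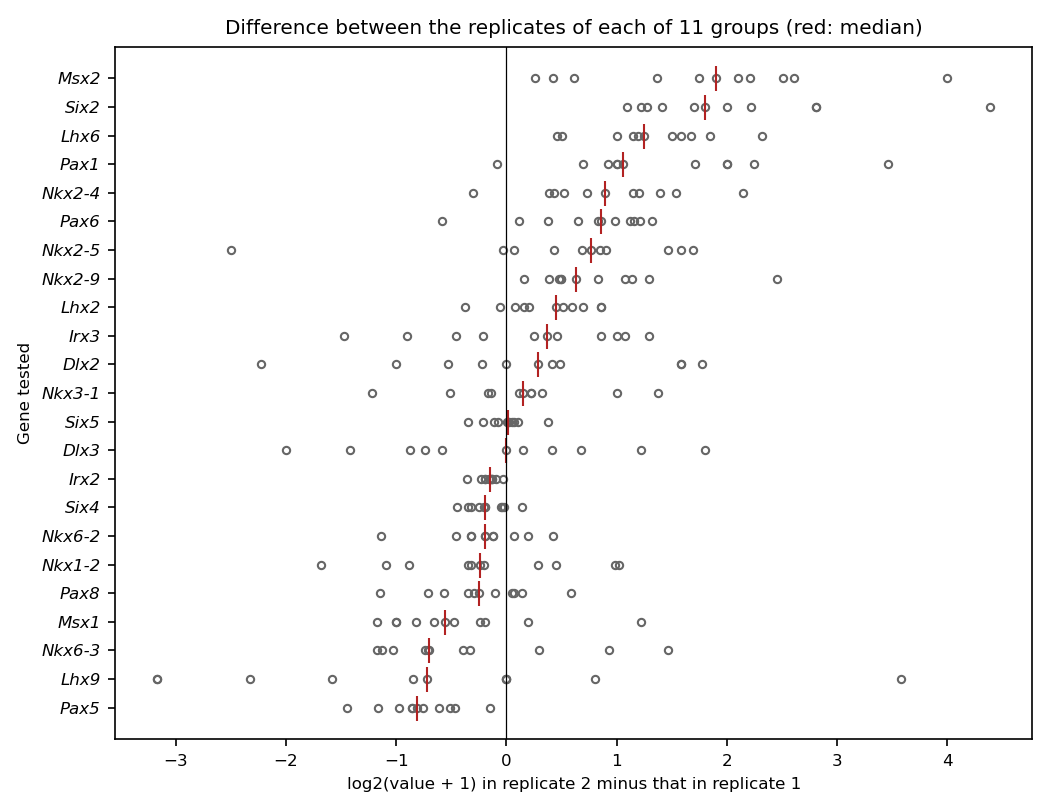
Difference in log2(value + 1) between replicate 2 and replicate 1 (x axis) for 23 tested homeobox genes (y axis), 1 circle for each of the 11 groups and a red line at the median. Msx2 (median 1.91), Six2 (1.81) and Lhx6 (1.25) lie wholly right of 0, Irx2 and Pax5 wholly left.

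Homeobox genes of other families were called in the same comparisons. Of 36 tested genes of this list, DZNep left 1 higher and 6 lower (19.4%, against 11.4% of all genes, with a median change of -0.58), and valproate 1 higher and 7 lower (22.2%, against 5.28%, median -0.36). Lmx1b had 572 and 182 counts in NC and 8 and 25 with DZNep (-4.40, SE 0.52, adjusted p = 7.16e-05). Cdx1, a caudal regulator, had 1773 and 1006 in NC, 37 and 116 with DZNep (-4.33, adjusted p = 0.00299) and 145 and 167 with valproate (-3.09, adjusted p = 0.038). Mnx1, of motor neurons, was lower with DZNep (-3.64, adjusted p = 0.000185), with valproate (-1.71, adjusted p = 0.039) and with MS023 (-2.02, adjusted p = 0.0486). The 1 gene that was higher, Dbx2, had 11 and 13 counts in NC, 58 and 50 with DZNep and 52 and 48 with valproate. With the other 6 compounds limma called 0 of the 36, and 1 to 7 of them had an unadjusted p under 0.05.

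Genes that encode protein partners of these factors, such as LIM-only proteins and TALE cofactors, were examined next. Of 29 tested, 1 (3.45%, below the 11.4% of all genes) was higher with DZNep (Pknox2, 433 and 389 counts in NC and 928 and 1010 with DZNep). With valproate 4 were called (13.8%, against 5.28%), of which 1 was higher (Lmo1, 63 and 57 to 229 and 167) and 3 lower (Lmo4, 228 and 174 to 50 and 59, Pbx2, 1832 and 1844 to 763 and 883, and Pknox2, 433 and 389 to 213 and 175). Pknox2 was therefore called in opposite directions with the 2 compounds.

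Among 19 tested genes of the signals that set these families in the embryo, 2 were higher and 6 lower with DZNep (42.1%, against 11.4% of all genes, median change -0.59), and 1 higher and 1 lower with valproate (10.5%, against 5.28%). The Hedgehog receptor component Smo had 1607 and 1756 counts in NC and 292 and 697 with DZNep (-1.89, adjusted p = 0.0158), and Gli1, a transcriptional effector and target of the same pathway, had 307 and 392 in NC and 858 and 694 with DZNep (1.15, adjusted p = 0.0271). Bmp4 had 8 and 9 counts in NC, 76 and 38 with DZNep (2.53, adjusted p = 0.00157), 59 and 29 with valproate (2.16, adjusted p = 0.0092) and 69 and 99 with Bromosporine (3.14, adjusted p = 0.00179). The BMP antagonist Chrd was lower with DZNep (-1.35, adjusted p = 0.00106) and, at 225 and 184 counts against 454 and 367, with valproate (adjusted p = 0.0148).

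All 31 Polycomb subunit genes of the list were tested. With DZNep 1 was higher and 1 lower (6.45%, below the 11.4% of all genes), Jarid2 with 6806 and 6968 counts in NC against 15635 and 12673 (1.03, adjusted p = 0.00051) and Phf19 with 347 and 320 against 30 and 51 (-3.06, adjusted p = 6.25e-06). Phf19, a PRC2 accessory subunit, was also lower with valproate (-2.08, adjusted p = 0.00023), Bromosporine (-1.57, adjusted p = 0.00275) and OICR (-1.68, adjusted p = 0.00871). Phc1, of PRC1, had 17540 and 15301 counts in NC and 6341 and 7375 with valproate (-1.26, adjusted p = 0.00023).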

How the data were processed

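The deposited expression table of 22 RNA-seq libraries was used. The authors prepared poly(A)-selected libraries, aligned reads with Bowtie2 2.2.5 and counted them with RSEM per the labels (mm10), and their methods describe EDASeq normalization for GC content and depth. The deposited values are such normalized read counts rounded to whole numbers, a score rather than a raw count, with nearly equal totals, so depth and its precision are unknown. Values were taken as log2(value + 1) and fitted with limma 3.58.1 in R 4.3.3 as 11 group means with a mean-variance trend (11 residual degrees of freedom). A gene entered the tests if 2 or more libraries held 10 or more. Benjamini-Hochberg adjustment was made within each comparison, and calls needed both an adjusted p under 0.05 and a change over 2-fold. Confidence intervals are from the same fit. The scripts were tested on simulated data.

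Groups and replicate numbers came from the sample titles and treatment labels. The members and the other gene lists were chosen with earlier results of these data known, so no list is independent support. Members called against NC with a larger group mean of at least 20 have full statistics where they are reported here by name. Values are given for the highest member of each family and for neighbouring members. Up to 4 called genes are named per other list and compound. The genes Lhx6, Nkx1-2, Irx3 and others that were not called, and Dbx2 and Gli1 with DZNep, were named after their values were seen. Some genes within the counts are not reported here by name. Gene positions are from GENCODE M21 and promoters from RefSeq, read with Python 3.11.15. Alternatives changed the pseudocount (10), the filter, the libraries in the fit, the scaling, the adjustment, the reference, the replicate block and single libraries.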

Additional observations from a re-analysis of the deposited data

How the results depend on the processing

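No called change of a single member reversed in the alternatives run. The median change of the members, which carries no test, kept its sign with DZNep and Bromosporine and changed it with valproate, from -0.13 to 0.07 without valproate replicate 1 and 0.06 with all other groups averaged in place of NC. With only the compared groups in the fit, the count of called members was 0 for DZNep, 0 for valproate and 0 for Bromosporine. In the direct comparisons that count was 0 for DZNep against valproate, 1 for DZNep against Bromosporine and 0 for valproate against Bromosporine. These fits had fewer libraries to estimate the spread. Against NC they called 97 of all tested genes for DZNep (1970 in the main fit) and 75 for valproate (912). Adjustment over all 10 contrasts together gave a count of 3 for DZNep, 2 for OICR, 1 for IOX1 and 1 for UNC0379. For DZNep this adjustment called 1413 of the 17275 tested genes, beside 1970 in the main fit. Taking all other groups averaged in place of NC gave 8 for DZNep, 4 for Bromosporine, 1 for OICR and 1 for IOX1. With this reference 2133 of all tested genes were called for DZNep. For the other compounds named, the counts over all genes in these settings are not reported here. Leaving out 1 library at a time gave 2 to 4 members for DZNep (2 without NC replicate 1, 3 without DZNep replicate 1), 1 to 4 for valproate (1 without valproate replicate 1), 0 to 2 for Bromosporine (0 without either NC library, 2 without Bromosporine replicate 2), 2 to 4 for DZNep against valproate (2 without valproate replicate 1 or either DZNep library), 3 to 5 for DZNep against Bromosporine (3 without Bromosporine replicate 2) and 2 to 4 for valproate against Bromosporine. Calls over all tested genes moved too when 1 library was left out, for valproate against NC downward in each such fit. The pseudocount, the filter and the scaling kept every count of members within 1.5 times the main one. Nkx2-9 with DZNep and Nkx6-2 with DZNep and valproate lost their calls only in the fit of the compared groups. The cause was not tested.

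The replicate block raised the count to 7 for DZNep (15.1% of all genes were called in that fit), with Lhx6 (adjusted p = 0.00111) and Nkx1-2 (0.042) added. The count became 4 for valproate (8.61%), with Pax6 added (0.0215), and 5 for Bromosporine (6.88%). For MS023 it became 1 (2.8%), for OICR 3 (1.59%) and for IOX1 1 (1.26%). Directly compared, it became 7 for DZNep against valproate (13.9%), 11 for DZNep against Bromosporine (18.1%) and 7 for valproate against Bromosporine (12.6%). With the block, 13 of the 24 tested members (54.2%, beside 24.2% of all genes) were called with at least 1 compound. Same-numbered libraries deviated together, with correlations of 0.0535 to 0.298 between groups (51 of 55 over 0.1), but with 2 numbers and no label for their origin the pairing is a hint from the data, not part of the design. The depth of the libraries is unknown, and members with values near 0 could not be resolved.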
